A study of Mus musculus with 4 samples.

Results

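Abca1 and Abcg1 encode the main sterol exporters of immune cells, and their transcripts were followed here through every annotated cell type of tumor-draining lymph nodes with and without a liver X receptor (LXR) agonist. The genes were taken by their symbols in the deposited gene list, as 2 of 32285 genes. Wildtype mice were injected with tumor cells and their draining nodes were taken on day 8. The control group ate control chow, and the other group ate chow that held RGX-104, an LXR agonist, from day 3. Antigen-presenting cells (APCs) and T cells from the nodes were separated by flow cytometric sorting, and their transcripts were counted cell by cell from the 5′ end on the 10x platform. Each chow is represented by 1 RNA library, with no replicate, and the labels used here do not say how many mice gave the cells or which tumor line was injected. A difference between the libraries is therefore a difference between 2 libraries, the chow and the library cannot be told apart, and no p-value is given. Every interval is a 95% interval for counting error only.

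ABCA1 loads cholesterol and phospholipid onto lipid-poor apolipoproteins such as ApoA-I and ApoE at the cell surface, whereas ABCG1 moves sterol towards particles that already carry lipid, such as high-density lipoprotein. Both genes are textbook targets of the oxysterol-sensing receptors LXRα (Nr1h3) and LXRβ (Nr1h2), which bind DNA with the retinoid X receptor at paired half-sites spaced by 4 bases. In macrophages the exporters are known for clearing surplus cholesterol, and in lymphocytes for limiting membrane cholesterol.

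Abca1 (ENSMUSG00000015243) is a protein-coding gene on chromosome 4 from 53030789 to 53159988, on the minus strand, and Abcg1 (ENSMUSG00000024030) is a protein-coding gene on chromosome 17 from 31057694 to 31117984, by the RefSeq annotation of GRCm38.p6. The promoter table used here holds a window for Abca1, which was searched for motifs; Abcg1 was not analysed here in this respect. The window ran from 250 bases before to 50 bases after the start, on both strands. The following stretches of it are printed on the gene's strand, 5′ to 3′, with the motif in capitals.
Abca1 DR4-like site, chr4:53159940-53159969: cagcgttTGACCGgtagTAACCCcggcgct
Abca1 E-box, chr4:53160025-53160054: gggccatgtctcCACGTGctttctgctgag
Abca1 TATA box, chr4:53159907-53159936: cacagccgaatcTATAAAaggaactagtcg
The first stretch holds the window's closest match to the LXR type of element, a direct repeat of AGGTCA with 4 bases between the copies (DR4). On the opposite strand it reads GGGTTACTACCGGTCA, and it departs from the repeat at 3 of its fixed bases. A match that close was present in 21.9% of 32851 promoter windows of the same length, so these letters alone do not single out Abca1. No match with 2 or fewer mismatches was found in the Abca1 window, and 3.02% of windows held one. Among 17 other reported LXR targets with a window, 4 had a match with up to 3 mismatches, namely Arl4c, Fasn, Il1rn and Srebf1. The E-box CACGTG was present in 7.15% of windows and is also a match to the looser CANNTG, which 72.3% of windows held. TATAAA was present in 13.6% of windows. The GC box GGGCGG occurred at 2 places of the Abca1 window and in 35.7% of windows. These matches describe the letters and show no binding.

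Depth was 31530931 unique molecular identifiers (UMIs) over 7346 barcodes for the control and 38480769 UMIs over 8671 barcodes for RGX-104. The authors' annotation names 2881 and 2944 of these barcodes, of which 782 and 949 are APCs and 2099 and 1995 are T cells. The libraries share 95 barcode sequences, of which 39 belong to annotated control cells and 30 to annotated RGX-104 cells. Without these cells the ratios of Abca1 given below were 14.2 in APCs and 8.33 in T cells. Comparisons by type use the 14 of 22 annotated types that hold 50 or more cells on both sides. Most of these names were borne out by marker genes. As an example, 5 mature dendritic cell genes (Ccr7, Fscn1, Ccl22, Il4i1 and Cacnb3) summed to 8479 to 12747 CPM (UMIs per 1000000 UMIs of the same cells) in mLC, mcDC1 and mcDC2 against 80.1 to 727 CPM in rcDC1 and rcDC2. The names Th1_01 to Th1_03 did not, because the defining genes Tbx21, Cxcr3, Ifng and Cxcr6 summed to only 0.913 to 7.75 CPM there, against 224 and 274 CPM in the cells named Tfh, so these 3 types are called by their deposited names and by nothing more. The control cells named Tfh, for follicular helper T cells, carried 510 CPM of Cd8a and Cd8b1, and those of the RGX-104 library 106 CPM.

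Both exporters stood higher in the RGX-104 library in both lineages. Abca1 was counted 50 times in the control APCs and 987 times in the RGX-104 APCs, which is 6.84 CPM (5.08 to 9.02) and 99.1 CPM, with a ratio of 14.5 (10.9 to 19.7). In T cells Abca1 had 158 and 1296 UMIs, or 13.8 and 115 CPM, with a ratio of 8.31 (7.04 to 9.87). In single cells this meant an Abca1 UMI in 36 of 782 control APCs and in 471 of 949 RGX-104 APCs, and in 137 of 2099 and 825 of 1995 T cells. Abcg1 had 994 and 3502 UMIs in APCs, or 136 and 352 CPM, with a ratio of 2.59 (2.41 to 2.78). In T cells Abcg1 had 555 and 1679 UMIs, or 48.4 and 148 CPM, with a ratio of 3.07 (2.78 to 3.38). All 4 ratios pass the 1.5-fold used here as a call, a size that 4.14% of 10346 measured genes reached upwards and 4.44% downwards in APCs, and 2.92% and 1.66% of 10214 in T cells. With TMM scaling in place of totals, 529 APC genes were called higher and 350 lower, against 428 and 459 by totals.

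The lineages were ordered in opposite ways for the 2 genes. In the control library T cells had 2.01 times (1.46 to 2.83) the Abca1 CPM of APCs, and in the RGX-104 library 1.16 times (1.06 to 1.26). These ratios depend on the mix of APC types, which held 27 control and 52 RGX-104 macrophages. APCs other than macrophages had 5.87 and 83.9 CPM of Abca1, against 6.84 and 99.1 CPM in all APCs. For Abcg1, T cells stood at 0.356 (0.320 to 0.395) of the APC level without and at 0.422 (0.398 to 0.447) with RGX-104. Per cell, APCs had a mean of 0.0639 (control) and 1.04 (RGX-104) UMIs of Abca1, and T cells 0.0753 and 0.650. The control T cells with Abca1 nearly always held a single UMI, 120 of 137 cells, whereas in the RGX-104 library 188 T cells held 2 UMIs and 105 held 3 or more. The highest Abca1 count in a cell was 17 UMIs among the RGX-104 APCs and 4 among the control APCs. For Abcg1 the cells with 3 or more UMIs numbered 136 of 782 control APCs and 494 of 949 RGX-104 APCs.

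**Figure D1:**
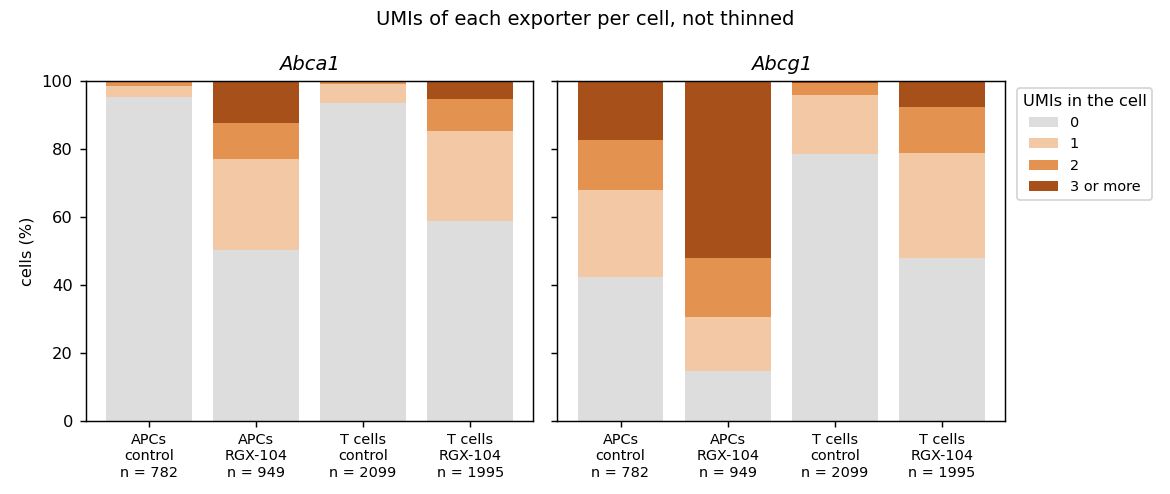
Share of cells (%) with 0, 1, 2 or 3 and more UMIs of Abca1 (left) and Abcg1 (right), for APCs and T cells of each library, not thinned to a common depth. Abca1 was at 0 in 746 of 782 control APCs and in 478 of 949 RGX-104 APCs, and Abcg1 in 331 and 138.

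In the control library the Abca1 levels of the APC types spread more widely than those of the T cell types. The cells named mono had the highest level, 27.6 CPM (15.4 to 45.5), from 15 UMIs in 75 cells. Next among the APCs came rcDC2 at 14.6 CPM (7.27 to 26.1), then mcDC2 at 4.49, mLC at 3.82, mcDC1 at 1.39 and rcDC1 at 0.455 CPM. The lower 4 of these rest on 1 to 4 UMIs each. All 8 T cell types lay at or above the 11.5 CPM of CD8_02 and at or below Th1_02, which had 19 UMIs in 241 cells and an interval of 12.04 to 31.2 CPM. In the order of the 14 control levels, all 13 neighbouring pairs had intervals that overlapped. The cDC1 types stood at its foot. Summed after their values had been seen, mcDC1 and rcDC1 together had 3 Abca1 UMIs in 301 control cells, 0.825 CPM (0.170 to 2.41). The cDC2 types mcDC2 and rcDC2 had 13 UMIs in 144 cells, 10.8 CPM (5.77 to 18.5), and 11 of these UMIs came from rcDC2.

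With RGX-104 the order of Abca1 levels was led by Tfh at 213 CPM (177 to 255), mono at 194 CPM (162 to 230) and Treg, the regulatory T cells, at 188 CPM (153 to 228). These 3 did not differ beyond their counting error and were set apart from the rest, since the next type, CD8_02, had 127 CPM (111 to 145). The types from CD8_02 down to mcDC1 ran from 127 to 73.6 CPM without a gap between neighbours. At the foot rcDC1 had 40.9 CPM (33.5 to 49.5), below mcDC1 (62.3 to 86.3). The rcDC1 cells were the deepest of the APC types, with medians of 16248 and 19292 UMIs per cell, and with RGX-104 they held 0.761 Abca1 UMIs per cell against 0.706 in mcDC1. The order in CPM was thus not the order in UMIs per cell. Tfh exceeded CD8_01 by 1.93-fold (1.54 to 2.40) and Treg exceeded CD8_01 by 1.70-fold (1.34 to 2.14) in this library, whereas in the control library the same ratios were 0.902 (0.383 to 1.90) and 1.37 (0.649 to 2.68).

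**Figure D2:**
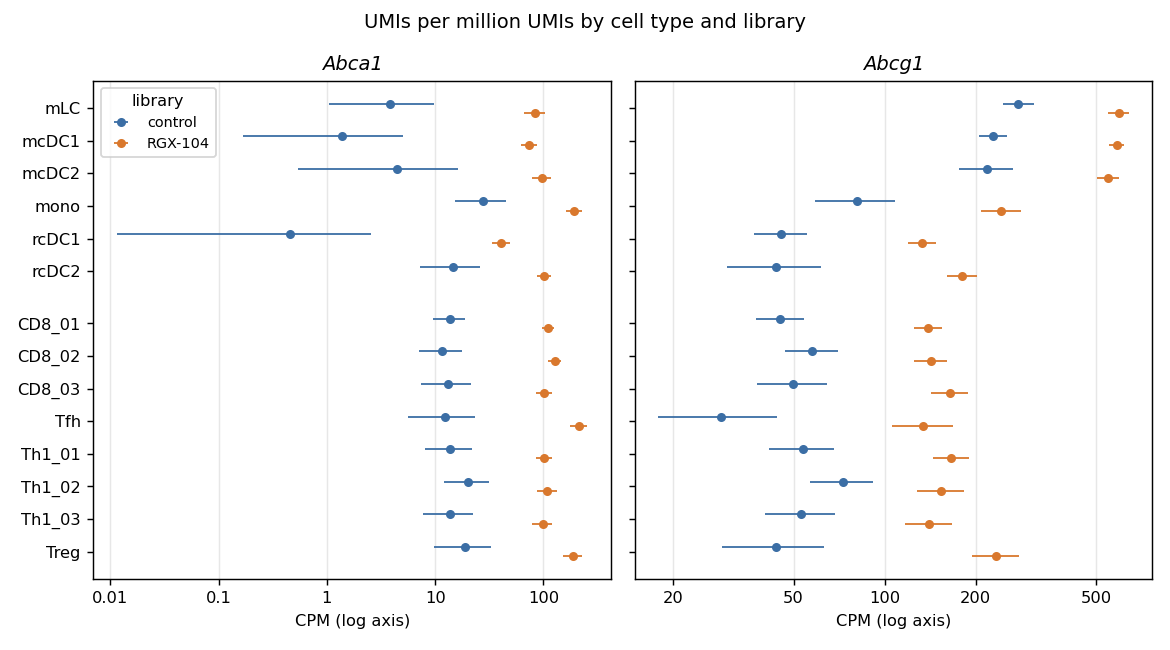
Abca1 (left) and Abcg1 (right) in CPM, on log axes with different ranges, for 14 cell types. Points are the summed UMIs of 1 library scaled to CPM and bars are exact Poisson 95% intervals. Control Abca1 ran from 0.455 CPM in rcDC1 to 27.6 CPM in mono, and Abcg1 was set apart in mLC, mcDC1 and mcDC2 in both libraries.

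The order of types differed for Abcg1. In the control library the 3 types with high mature dendritic cell genes stood apart from the other 11: mLC had 277 CPM (246 to 311), mcDC1 229 CPM (205 to 255) and mcDC2 218 CPM (177 to 266), and the next type, mono, had 80.8 CPM (58.7 to 109). The remaining 10 types ran from 72.6 CPM in Th1_02 to 28.9 CPM in Tfh without a gap. The same 3 types led with RGX-104, where mLC had 594 CPM (548 to 643), mcDC1 587 CPM (554 to 621) and mcDC2 548 CPM (503 to 597). Mono followed with 243.5 CPM (208 to 284) and Treg with 234 CPM (195 to 279), and rcDC1 was again last, at 133 CPM (120 to 148).

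The mcDC types held several times the Abcg1 of their rcDC counterparts in both libraries. In the control library mcDC1 had 5.03 times (4.01 to 6.36) the Abcg1 of rcDC1, and mcDC2 had 4.98 times (3.33 to 7.64) that of rcDC2. With RGX-104 these ratios were 4.40 (3.90 to 4.98) and 3.03 (2.62 to 3.50). For Abca1 the corresponding ratios in the RGX-104 library were 1.799 (1.39 to 2.33) and 0.949 (0.729 to 1.23), and in the control library the counts were too few to order the pairs, with intervals of 0.159 to 180 and 0.0332 to 1.41.

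The ratio between libraries was above 1 in 14 of 14 types for each gene, with every interval above 1. As background, the share of measured genes with such an interval was 6.13% in mLC, 7.59% in mcDC1, 6.51% in mcDC2, 9.65% in mono, 7.45% in rcDC1 and 6.7% in rcDC2. Among the T cells it was 5.62, 4.82 and 5.51% in CD8_01 to CD8_03, 5.14% in Tfh, 5.6, 4.29 and 5.84% in Th1_01 to Th1_03 and 5.77% in Treg. Abca1 and Abcg1 belonged to this minority in each of the 14 types. For Abca1 the ratio ran from 5.44 (3.29 to 9.46) in Th1_02 to 90.0 (15.8 to 3587) in rcDC1, where the control library held 1 UMI. Next came mcDC1 with 52.9 (14.4 to 441), from 2 control UMIs, then mLC with 21.8 (8.21 to 81.8) and mcDC2 with 21.5 (5.79 to 180). The cDC1 types together had a ratio of 67.2 (22.7 to 328), and the intervals of both lay above those of 7 of the other 12 types: mono, rcDC2, CD8_01, CD8_03 and the 3 Th1 types. The cDC2 types together had a ratio of 9.21 (5.30 to 17.5), below the cDC1 interval. Of their 13 control UMIs 11 came from rcDC2, and the interval of mcDC2 alone overlapped those of both cDC1 types. The remaining APC ratios were 7.03 (4.11 to 12.9) in mono and 6.98 (3.804 to 14.3) in rcDC2.

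Among the T cells the highest Abca1 ratio was that of Tfh, 17.2 (8.78 to 38.6), from 9 control and 119 RGX-104 UMIs, and it was 17.8 (7.89 to 49.6) without the cells that held a Cd8a or Cd8b1 UMI. CD8_02 had 11.0 (6.98 to 18.4) and Treg 10.0 (5.50 to 20.1), although 41.7% of the 12 control UMIs of Treg came from 1 cell. Without the cell with the most Abca1 UMIs in each library the ratio was 15.97 (7.46 to 40.8) in Treg, 41.4 (11.1 to 347) in mLC and 102.8 (18.2 to 4089) in mcDC1. Before this step mLC and mcDC1 had only 4 and 2 control UMIs. On cells thinned to 2000 UMIs the ratio was 6.46 in Treg, 12.6 in mLC and 39.4 (6.69 to 1595) in CD8_03. The CD8_03 value rests on 1 thinned control cell with a UMI, and without thinning it was 7.74 (4.52 to 14.2). The other T cell types lay between 5.44 and 8.07. A high ratio did not mean a high level: the types with the most Abca1 added were Tfh (201 CPM), Treg (169 CPM) and mono (166 CPM), and rcDC1, with the highest ratio, added the least (40.5 CPM).

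Abcg1 ratios lay in a narrower band, from 2.12 (1.57 to 2.88) in Th1_02 to 5.36 (3.54 to 8.39) in Treg. Tfh with 4.66 (2.84 to 7.96) and rcDC2 with 4.14 (2.88 to 6.13) came next. Without the cells that held a Cd8a or Cd8b1 UMI, Tfh had the higher value of 6.43 (3.37 to 13.5), above that of Treg. The interval of Treg lay above those of mLC, mcDC1 and mcDC2, and also above those of the T cell types CD8_02 (1.95 to 3.15) and Th1_02. The types mLC, mcDC1 and mcDC2, already the highest, had ratios of 2.14 (1.86 to 2.47), 2.57 (2.27 to 2.91) and 2.52 (2.02 to 3.16). Yet these 3 types added the most Abcg1, 317 to 358 CPM, against 81.0 to 191 CPM in the other types. The Abca1 ratio exceeded the Abcg1 ratio in 14 of 14 types, and the intervals of the 2 ratios did not overlap in 11.

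**Figure D3:**
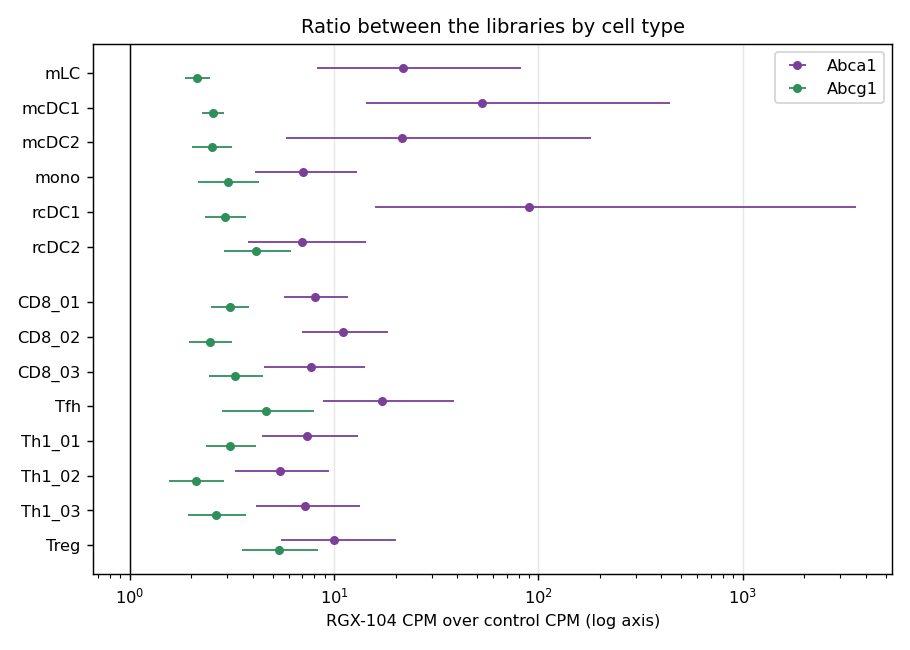
Ratio of RGX-104 CPM to control CPM on a log axis for Abca1 and Abcg1 in 14 cell types, with exact conditional binomial 95% intervals. All 28 intervals lie above 1, Abca1 reaches 90.0 in rcDC1 from 1 control UMI, and Abcg1 stays between 2.12 and 5.36.

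In the 8 types with fewer cells both genes were also higher in the RGX-104 library in 8 of 8, with the interval above 1 in 7 for each gene. The cells named macrophages, 27 for control and 52 for RGX-104, had 53.4 CPM (23.0 to 105) and 328 CPM (285 to 377) of Abca1, with a ratio of 6.15 (3.06 to 14.4). These were the highest values of the 22 types, but their intervals overlapped those of mono in the control and of pDC (125 to 355) with RGX-104, and 4 of the 8 control UMIs came from 1 cell. Their median depth was 4415 UMIs for control and 11398 for RGX-104, and 7 of 7 macrophage genes were found in both and summed to 4244 and 7115 CPM. The part of depth and marker level in the macrophage ratio was not tested. In APCs other than macrophages the Abca1 ratio was 14.3, with a lower bound of 10.5. The plasmacytoid type (pDC) had 53 and 9 cells, with 10.2 and 218 CPM of Abca1 and 131 and 478 CPM of Abcg1. In the type named Gm26917+ mcDC, 0 of 12 control cells had an Abca1 UMI, which by a limit of 3 counts allows up to 25% of cells with a UMI, and 9 UMIs were counted in 32 RGX-104 cells, too few for a ratio, whereas Abcg1 was at 395 and 690 CPM, a ratio of 1.75 (0.852 to 4.04). The gamma delta T cells had the lowest Abcg1 level with RGX-104 of all 22 types, 79.2 CPM, beside 148 CPM of Abca1.

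The share of cells with a UMI moved with depth, so cells were thinned to 2000 UMIs, which left out 22 and 36 APCs and 41 and 27 T cells as too shallow. Abca1 was then found in 1.58% (0.819 to 2.74) of control and 17.2% (14.8 to 19.8) of RGX-104 APCs, and in 2.87% (2.19 to 3.68) and 21.4% (19.7 to 23.3) of T cells. Without thinning the shares were 4.60% and 49.6% of APCs and 6.53% and 41.4% of T cells. Thinning thus reversed the order of the lineages in the RGX-104 library, where APCs held a median of 9043 UMIs and T cells 5048. Abcg1 was found in 23.8% (20.8 to 27.0) and 47.0% (43.7 to 50.3) of thinned APCs and in 9.77% (8.52 to 11.1) and 27.3% (25.3 to 29.3) of thinned T cells.

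By type the thinned share of Abca1 with RGX-104 was highest in Tfh, 35.7% (25.5 to 46.9), followed by Treg with 28.2% and mono with 27.0%, and lowest in rcDC1 with 8.21% (4.17 to 14.2). It was higher than in the control library in 14 of 14 types, and the intervals were apart in all 14. Thinned Abcg1 was found with RGX-104 in 60.1 to 68.0% of the cells of mLC, mcDC1 and mcDC2 and in 20.9 to 45.9% of those of the other types, and the intervals of the libraries were apart in 13 of 14 types. The free RNA of burst cells bears on a share of this kind, and B cell transcripts, which T cells and most APCs should lack, gauge it. In control T cells, at a median of 4944 UMIs, Cd79a had a UMI in 3.81%, Ms4a1 in 1.33% and Cd79b in 6.67%, against 6.53% for Abca1 without thinning. In control APCs, at a median of 8052 UMIs, the same genes had a UMI in 3.71%, 4.22% and 11.4%, against 4.60% for Abca1. The control shares of Abca1 thus lay below that of Cd79b in both lineages, and the ratios above rest on these low control counts. The genes differ in abundance, since over all control barcodes Cd79b stood at 198 CPM and Abca1 at 24.0 CPM. These shares alone therefore do not tell free RNA from expression, and the part of free RNA in them was not tested. With RGX-104 the B cell genes had a UMI in 1.55 to 5.66% of T cells and in 3.48 to 12.01% of APCs. Abca1 had a UMI in 41.4 and 49.6% of these cells. Myeloid genes in T cells differed more between the libraries. Lyz2 had a UMI in 4.24% of control and 9.12% of RGX-104 T cells, and C1qa in 0.286% and 1.05%. The part of free RNA in the difference between the libraries was not tested. The shares of Abcg1, 21.5% of control T cells and 57.7% of control APCs, were above all 3 B cell genes. As a share of the level over all barcodes, control T cells held 1.85% for Cd79a, 2.32% for Ms4a1, 8.50% for Cd79b and 57.5% for Abca1. All barcodes include these T cells, and the genes differ in the cells that hold them. In unannotated control barcodes with B cell genes Cd79a stood at 2922 CPM and Abca1 at 68.0 CPM. These percents therefore cannot be compared between genes as a gauge of free RNA.

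**Figure D4:**
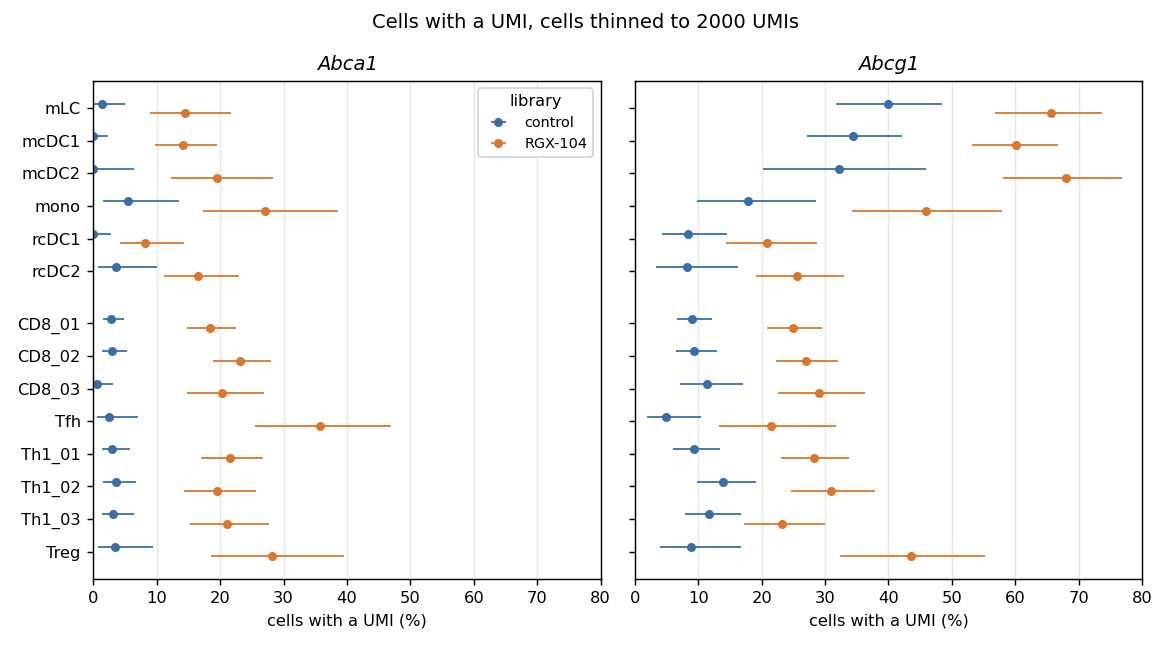
Percent of cells with at least 1 UMI of Abca1 (left) or Abcg1 (right) after thinning every cell to 2000 UMIs, by cell type and library, with exact Clopper-Pearson 95% intervals. Abca1 with RGX-104 runs from 8.21% in rcDC1 to 35.7% in Tfh, and Abcg1 from 20.9% in rcDC1 to 68.0% in mcDC2.

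The balance of the exporters was described by the share of Abca1 among the UMIs of both genes, which can be compared between types and libraries although it is no molar ratio, since transcripts of different genes may be captured unequally. In the control library that share was 4.79% (3.58 to 6.27) in APCs and 22.2% (19.2 to 25.4) in T cells. With RGX-104 it was 22.0% (20.8 to 23.2) and 43.6% (41.8 to 45.4). It was higher with RGX-104 in 14 of 14 types, and the intervals were apart in 12, the exceptions being rcDC2 and Treg. The lowest control share, 0.604%, was that of mcDC1, with 2 Abca1 and 329 Abcg1 UMIs, and the highest were those of Tfh, with 9 Abca1 and 21 Abcg1 UMIs, and Treg, with 12 and 28. With RGX-104 the range was 11.1% (9.52 to 12.9) in mcDC1 to 61.3% (54.1 to 68.2) in Tfh, the only one of the 14 types with more Abca1 than Abcg1 UMIs.

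**Figure D5:**
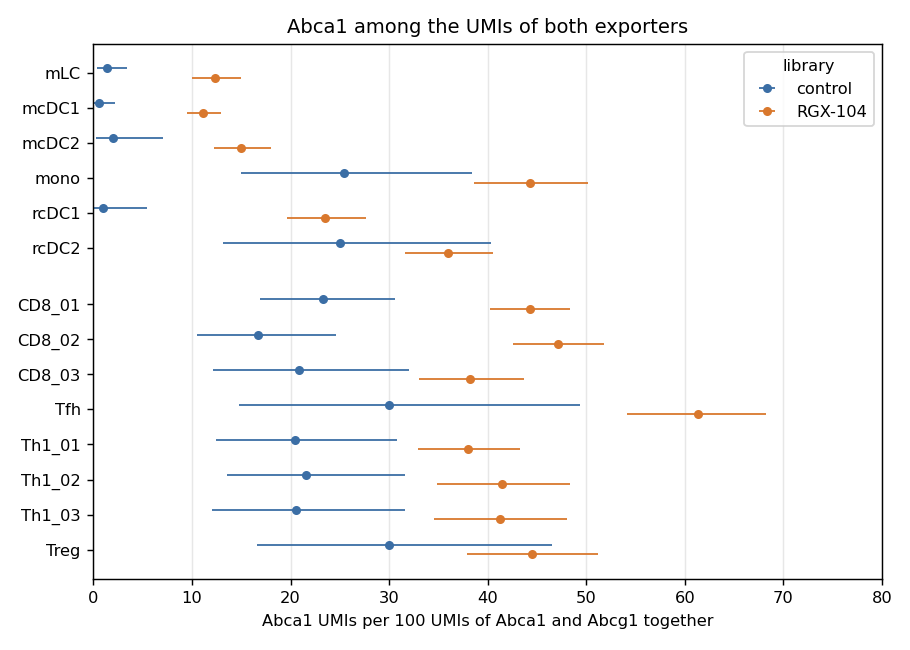
Abca1 UMIs per 100 UMIs of Abca1 and Abcg1 together, by cell type and library, with exact Clopper-Pearson 95% intervals. The share is higher with RGX-104 in all 14 types, and ranges there from 11.1 in mcDC1 to 61.3 in Tfh.

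Whether the exporters were found in the same cells was described with the thinned RGX-104 cells. Of 913 APCs 72 held both, 85 only Abca1 and 357 only Abcg1. Abca1 was found in 16.8% (13.4 to 20.7) of APCs with Abcg1 and in 17.6% (14.3 to 21.3) of those without, and the odds ratio stratified by type was 0.861. Of 1968 T cells 136 held both, and Abca1 was found in 25.3% (21.7 to 29.2) of T cells with Abcg1 and in 19.99% (17.9 to 22.1) of those without, an odds ratio of 1.38. By type the odds ratio was above 1 in 3 of 6 APC types, with a range of 0.530 to 1.53, and in 6 of 8 T cell types, with a range of 0.855 to 2.92 and the highest in Th1_01. The APC value turned above 1 at other depths, to 1.19 at 1000 UMIs and 2.28 without thinning. Other LXR targets gave values of the same order: Abca1 with Mylip, which encodes a ubiquitin ligase, had 1.24 in APCs and 1.40 in T cells, and Abca1 with Srebf1 had 0.916 and 1.27. In counts this sparse such values are a description and no finding.

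Clonotype size went with little difference in either gene. T cells in clonotypes of 2 or more cells had 13.3 CPM of Abca1 (control) and 118 CPM (RGX-104), and T cells whose clonotype occurred in 1 cell had 14.04 and 114 CPM. For Abcg1 the values were 54.1 and 136 CPM against 46.4 and 152 CPM. None of these 4 pairs had a ratio with an interval that left out 1. APCs with either of the deposited cell cycle scores at 0 or above had 0.561 (0.453 to 0.687) of the Abca1 level and 0.614 (0.552 to 0.681) of the Abcg1 level of other APCs in the RGX-104 library, and for Abcg1 also in the control library, 0.566 (0.465 to 0.684). The part of cell type in this was not tested. In RGX-104 T cells the same ratios were 0.921 (0.825 to 1.03) and 0.913 (0.829 to 1.006).

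The genes whose levels were most like those of each exporter were different. Over 28 points, the 14 types in each of the 2 libraries, Pearson's r of log2(CPM + 5) among 9525 genes was highest with Abca1 for Scd2 (0.93), a fatty acid desaturase, and for Srebf1 (0.90), the sterol-response factor of fatty acid synthesis. Scd2 stood at 22.6 and 223 CPM in APCs and at 21.6 and 278 CPM in T cells, and was highest with RGX-104 in Tfh (475 CPM), Treg (474 CPM) and mono (368 CPM), the types that led for Abca1. After them came the immunoglobulin light chain segments Igkv3-2 (0.88) and Igkv16-104 (0.87) and Lars2 (0.83), the mitochondrial leucyl-tRNA synthetase. Igkv3-2 was low in the control library, at 3.56 CPM in APCs and 0.436 CPM in T cells. It stood at 29.3 CPM in RGX-104 T cells, which do not make immunoglobulin. With RGX-104 Igkv3-2 was found in all 14 types, from 9.75 CPM in rcDC1 to 44.3 CPM in CD8_02. A gene that differs between the 2 libraries in every type gets a high r here. How these transcripts came to be counted in T cells was not tested. Reads of such segments may also be split among near-identical copies.

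Over both libraries together Abcg1 was most like genes of cholesterol synthesis, namely Idi1 (0.91), Hmgcs1 (0.90), Msmo1 (0.89) and Mvd (0.89). Within either library alone, 0 of the 5 genes most like each exporter over both libraries were again among its 5. The gene most like Abcg1 was then Synpo2 (0.96) in the control and Mxd1 (0.98) with RGX-104. Idi1 stood at 213, 235 and 184 CPM in mLC, mcDC1 and mcDC2 of the control library against 7.35 to 35.9 CPM in the other types, the same split as Abcg1. Abca1 and Abcg1 had an r of 0.49 with each other, which placed Abcg1 at rank 68 among the genes most like Abca1. Within 1 library, over 14 types, that r was -0.52 in the control and -0.16 with RGX-104, so that within a library the types were not ordered alike for both exporters. The points share libraries and differ in depth, and no p is given.

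Of the receptors, Nr1h2 stood between 31.5 and 66.8 CPM in each of the 14 types of both libraries, with 55.9 and 55.7 CPM in APCs and 49.1 and 52.5 CPM in T cells. Nr1h3 was concentrated in macrophages, 454 CPM (352 to 575) without and 86.9 CPM (65.3 to 113) with RGX-104, and in mono, 56.9 (38.7 to 80.8) and 24.9 CPM (14.5 to 39.9). Elsewhere Nr1h3 stayed at or below 8.98 CPM, so most of the types with higher Abca1 had Nr1h2 and hardly any Nr1h3 transcripts. Of 16 measured receptors, partners and cofactors in APCs 0 were 1.5-fold higher and 1 was lower, Nr1h3 at 15.9 and 9.34 CPM, a ratio of 0.589 (0.443 to 0.780), and in T cells 0 of 15 passed either way. The next largest ratio was that of Rara, a retinoic acid receptor, 1.48 (1.27 to 1.72) in APCs. The counts of this list are near the background of all measured genes, which was 4.14% higher and 4.44% lower in APCs. In T cells the background was 2.92% higher and 1.66% lower. The partner Rxra stood at 10.1 and 10.1 CPM in APCs, and the corepressor Ncor1 at 143 and 134 CPM. The median log2 ratio of the list was -0.03 in APCs and 0.07 in T cells, and over all measured genes it was -0.06 and -0.01.

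Enzymes that make or remove sterol ligands were few. In APCs 2 of 5 measured were called higher, against 4.14% of all measured genes. Dhcr7, which acts at the end of cholesterol synthesis, had a ratio of 1.54 (1.05 to 2.29) in APCs, which was 1.42 (0.960 to 2.13) without macrophages. Cyp27a1, which makes 27-hydroxycholesterol, had 54.2 and 57.6 CPM in APCs. In T cells 3 of 3 were called higher, against 2.92% of all measured genes. Among them were Dhcr7 with a ratio of 1.78 (1.44 to 2.22) and the sulfotransferase Sult2b1 with 1.70 (1.18 to 2.47).

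Among acceptors and extracellular partners 4 of 8 in APCs were called higher and 1 lower, against 4.14% and 4.44% of all measured genes. Apoe, Lpl and Pltp of this list are also in the list of other reported LXR targets, so the counts of these lists overlap. Apoe, a lipid acceptor for ABCA1, had 124 and 612 CPM, a ratio of 4.95 (4.61 to 5.31), Lpl 4.50 (3.45 to 5.95) and the endocytic receptor Lrp1 1.79 (1.51 to 2.14), and Apoc2 was at 0.628 (0.451 to 0.873). In APCs other than macrophages Apoe had 47.5 CPM without and 75.5 CPM with RGX-104, with a ratio of 1.59 (1.40 to 1.82), and Lpl had a ratio of 2.92 (2.01 to 4.34). In T cells 3 of 4 were called higher, against 2.92% of all measured genes. Pltp had a ratio of 1.84 (1.19 to 2.91) and Apoe 1.504 (1.15 to 1.98). Myeloid transcripts were also higher in these T cells, Lyz2 at 11.8 and 19.4 CPM and C1qa at 0.611 and 1.86 CPM, and their part in the Pltp and Apoe values was not tested. In the same cells Scarb1 was at 1.35 (0.984 to 1.85). The list's median log2 ratio was 0.54 in APCs and 0.74 in T cells.

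The other transporters of the family came next. Of 12 other measured ABC transporters of sterols and lipids in APCs, and of 11 in T cells, 0 passed 1.5-fold in either direction, which is near the background, since 4.14% of all measured genes passed upwards in APCs and 2.92% in T cells. Without macrophages 1 of the 12 APC genes did, Abcd4 on the lower side. The largest ratios either way in APCs were those of Abcd4 at 0.697 and Abca5 at 0.707, with Abcg3 at 1.28 and Abcd3 at 1.26. Abca7, a close relative of Abca1, had 39.9 and 42.3 CPM in APCs, a ratio of 1.06 (0.910 to 1.23), and 35.2 and 37.5 CPM in T cells, a ratio of 1.06 (0.926 to 1.22). Abcg2, the drug and urate exporter, stood at 4.45 and 4.24 CPM in T cells. Abcg5 and Abcg8, which form the sterol exporter of liver and gut and are LXR targets there, had 0 UMIs in APCs and in T cells of both libraries, which by the same limit of 3 counts allows up to 0.410 CPM in control APCs and less in the other 3 groups of cells. The list's median log2 ratio was 0.07 in both lineages.

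Genes that supply, store or transfer sterol inside the cell mostly stayed within 1.5-fold. In APCs 2 of 21 were called higher, the sterol transfer protein Stard4 with 2.66 (2.11 to 3.37) and the small GTPase Arl4c with 1.74 (1.62 to 1.87), and 1 lower, Stard5 at 0.638 (0.478 to 0.851). In T cells 1 of 22 was called higher, Stard4 with 2.12 (1.795 to 2.50). As background, 4.14% of all measured genes were called higher and 4.44% lower in APCs, and 2.92% and 1.66% in T cells. The T cell count of this list is near that share. Npc1, which releases cholesterol from lysosomes, had a ratio of 0.792 (0.662 to 0.947) in APCs and 1.13 (0.929 to 1.37) in T cells. The other reported LXR targets were called higher in 12 of 20 in APCs and in 8 of 15 in T cells, with 1 lower in APCs, Nr1h3, and 0 lower in T cells. The highest APC ratios were those of Scd1, 10.1 (7.51 to 13.99), Mertk, a receptor for apoptotic cells, 9.97 (4.65 to 25.5), and Scd2, 9.88 (8.43 to 11.6), all under the 14.5 of Abca1. Mertk is itself one of the macrophage markers, and outside macrophages it had 1 and 2 UMIs in all other APCs, while Scd1 and Scd2 had 10.7 (7.90 to 14.9) and 9.23 (7.86 to 10.9) there. Without macrophages 10 of 19 targets were called higher. In T cells Scd2, 12.8 (11.3 to 14.7), was the only target of this list above Abca1, and Srebf1 followed with 5.05 (4.46 to 5.75). The list's median log2 ratio was 0.94 in APCs and 0.59 in T cells.

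Of the reported regulators of the exporters 1 of 21 was called higher in APCs and 1 of 20 in T cells and 0 lower, shares near the 4.14% and 2.92% of all measured genes. Without macrophages 0 of 20 were called in APCs. In T cells the gene was Srebf2, the factor of cholesterol synthesis whose intron hosts miR-33, a microRNA that represses Abca1, with 51.0 and 116 CPM and a ratio of 2.26 (2.05 to 2.50). In APCs Srebf2 had 100.1 and 127 CPM, a ratio of 1.27 (1.16 to 1.39). The microRNA itself was not measured by this assay.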

How the data were processed

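The deposited matrices hold counts of UMIs per gene and barcode, made by the authors (Cell Ranger 5.0.0, per the file headers); mm10 and Seurat 5.0.3 are named in the submitters' processing notes. The authors' deposited annotation tables give each cell a type name, UMI and gene counts, a mitochondrial percent, cell cycle scores (a unitless score that the authors computed) and, for T cells, clonal frequency as a count of cells. The tables carry no barcodes, so each cell was joined to the barcode with the same UMI count, gene count (genes in at least 3 barcodes) and mitochondrial percent, and all 2881 control and 2944 RGX-104 cells matched 1 barcode. The TCR contig tables were not used, and no doublet caller was run.

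Counts were summed by library and type and divided by the summed total (CPM). Ratios carry exact conditional binomial, CPM exact Poisson and shares Clopper-Pearson 95% intervals. A gene counts as measured from a sum of 50 UMIs over the libraries, and is called at 1.5-fold. Thinning drew 2000 UMIs per cell without replacement. The scripts were tested on simulated data. The members, the 7 gene lists and the marker lists were chosen with earlier results of these data known. The lists share members, so their counts are not separate. Apoe, Lpl, Pltp, Arl4c, Nr1h3, Abca7, Abcg5 and Abcg8 are in another list and also among the LXR targets. Named genes are both exporters, the 5 genes most like each, and, per list and lineage, at most the 4 measured genes whose ratio lies farthest from 1; Nr1h2, Rxra, Ncor1, Cyp27a1, Npc1, Abca7, Abcg2, Abcg5 and Abcg8 and the cDC1 and cDC2 sums were chosen after their values were seen. Some genes that this rule names are not reported here, though the list counts include them. Alternatives were TMM factors (edgeR 4.0.16, R 4.3.3), median-of-ratios factors, other totals, thinning, equal type weights and leaving out cells or types. Python 3.11.15, numpy 2.4.6, pandas 2.3.3 and scipy 1.17.1 were used. Promoter windows and positions come from RefSeq tables for GRCm38.p6, the assembly behind mm10.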

Additional observations from a re-analysis of the deposited data

Results flagged for a closer look

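Both exporters were also found outside the annotated cells. Barcodes without an annotation that held UMIs of at least 3 of 6 B cell genes and of at most 1 of the T cell markers numbered 1091 for control and 1503 for RGX-104. They are of interest because the annotation and the comparisons by type leave them out and because their RGX-104 levels exceeded their control levels. Abca1 stood there at 68.0 CPM (60.6 to 76.1) and 242 CPM (230 to 255), a ratio of 3.56 (3.14 to 4.05), and Abcg1 at 54.9 CPM (48.3 to 62.2) and 214 CPM (202 to 226), a ratio of 3.89 (3.39 to 4.48). The control level of Abca1 in these barcodes was 4.93 times (4.06 to 6.02) that of the annotated T cells, and with RGX-104 2.11 times (1.96 to 2.28). For Abcg1 the same ratios were 1.13 (0.972 to 1.32) and 1.44 (1.34 to 1.55). The Abca1 share of the UMIs of both exporters was 55.3% (51.1 to 59.5) and 53.1% (51.2 to 55.1), without the shift between libraries that the annotated types had. Thinned to 2000 UMIs, 15.1% and 38.0% of these barcodes held Abca1 and 12.3% and 31.9% Abcg1, after 341 and 507 shallower barcodes were left out. The sort was for T cells and APCs, and how these barcodes came through it was not tested.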

How the results depend on the processing

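With 1 library per group, the spread between mice is unknown, and few control UMIs limit the Abca1 ratios of rcDC1, mcDC1, mcDC2 and mLC. No paired analysis was possible because each group has 1 RNA library. The pooled ratios kept their direction and stayed within the main intervals under all alternatives run: 11.4 to 15.5 for Abca1 in APCs, 7.58 to 8.62 in T cells, 2.45 to 2.70 for Abcg1 in APCs and 2.99 to 3.19 in T cells. The removal of barcodes found in both libraries and of Tfh cells with CD8 transcripts was added after seeing the data. The number of types with an interval above 1 stayed at 14 for both genes. With thinning to 2000 UMIs Abca1 left its main interval in CD8_03, at 39.4 (6.69 to 1595) from 1 control cell with a UMI. Abcg1 did so in mcDC1, at 2.27, and in CD8_02, at 3.29. Thinned Abca1 was 12.6 in mLC and 6.46 in Treg, within the main intervals. Without the top cell of each library Abca1 was 41.4 (11.1 to 347) in mLC, 102.8 (18.2 to 4089) in mcDC1 and 15.97 (7.46 to 40.8) in Treg. The control cell left out held 2 of 4 Abca1 UMIs in mLC and 1 of 2 in mcDC1. In Treg it held much of the 12 control UMIs. The Abcg1 share of positive APCs in RGX-104 over control, 1.97 thinned, was 1.48 without thinning. The odds ratio of co-detection in RGX-104 APCs, 0.861 in the main setting, was 1.19 at 1000 UMIs and 2.28 without thinning; the cause was not tested. Of the 5 genes most like Abca1, 0 were shared with the control library alone, 0 with RGX-104 alone and 3 with a minimum of 1000 UMIs, and for Abcg1 0 and 0 within 1 library. Genes called higher in APCs numbered 983, 203 and 157, and lower 1064, 132 and 131, with a minimum of 10 UMIs, a minimum of 200 UMIs and at 2-fold, and in T cells 857, 86 and 89 higher and 608, 40 and 45 lower.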
